A study of Mus musculus with 8 samples.

Results

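The cell cycle genes described here are 38 genes of DNA replication and mitosis, chosen by name, out of 17738 gene symbols in the deposited table. They divide into 21 genes that act in or just before S phase and 17 that act in mitosis or mark cycling cells up to it, and each was read from the RefSeq transcript with the highest mean over the 8 spleens. The mice were untreated C57BL/6 males, 8 to 12 weeks old, and total spleen RNA was sequenced from 4 wild-type and 4 TTPΔARE animals, with replicates numbered 1 to 4 within each genotype as names only. TTPΔARE mice carry a Zfp36 allele without an AU-rich element in the 3′ untranslated region, and Zfp36 encodes tristetraprolin (TTP), a protein that binds such elements and speeds mRNA decay. The labels do not say whether both copies of the gene carry the deletion, and they name no cell type in which it acts. Values are FPKM, fragments scaled for transcript length and for library size, so levels of different genes can be compared per length. The estimated depth was 28300000 to 32200000 fragments per library, and wild-type replicate 2, which held the lowest value of most of these genes, had 31400000. Dixon's outlier test at its 95% critical value marked no spleen in the 88 groups of 4 values tested. It took each group alone, so it could not mark a spleen that is moderately low in many genes at once.

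Before a cell copies its genome, the Mcm2 to Mcm7 proteins are loaded at origins as a ring-shaped helicase, which is then switched on by cyclin-dependent kinases and joined by Cdc45 and the GINS complex. E2F factors drive transcription of these genes around the start of S phase, while a later wave of mitotic genes is driven by the B-Myb and MuvB complex and Foxm1. In mice the spleen is a blood-forming organ: early erythroid precursors of the red pulp divide rapidly, and B cells divide in germinal centres of the white pulp. Klf1, an erythroid transcription factor, and Car2, a carbonic anhydrase abundant in erythroid precursors, were therefore read beside the cell cycle genes.

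None of the 38 genes passed the test between genotypes, while a single wild-type spleen held the lowest wild-type value of nearly every one. By limma on log2(FPKM + 0.5), with Benjamini-Hochberg adjustment over 16608 tested transcripts, 0 of 38 had an adjusted p under 0.05, against a background of 2.01% called higher and 1.99% called lower. At an unadjusted p under 0.05 stood 2 of 38, Mcm4 and Nusap1, against 21.1% of all transcripts tested. This count was 0 without wild-type replicate 1 or TTPΔARE replicate 1, 3 or 4, and 4, 5, 7 and 3 without wild-type replicates 2, 3 and 4 and TTPΔARE replicate 2, while 15.1 to 21.5% of all transcripts stood there in those 8 fits. The log2 difference, TTPΔARE minus wild-type, was positive for 29 and negative for 9 genes, with a median of 0.13 for the S phase genes, 0.15 for the mitotic genes and 0.0031 for all transcripts tested. No gene separated the genotypes: 0 of 38 had groups without overlap, against 12.5% of tested transcripts. Because whole spleens were used, a difference in the number of dividing cells and a difference in these mRNAs per cell cannot be told apart.

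The samples were checked on 3 genes. Zfp36 itself stood at 36.4 to 44.9 FPKM in wild-type and 46.1 to 57.5 FPKM in TTPΔARE spleens and rose by log2 0.39 (SE 0.0848, limma adjusted p = 0.0323), a call that 5 of the 8 fits leaving out 1 spleen did not keep (limma adjusted p = 0.0668 to 0.108, the spleen left out being replicate 1 or 4 of the wild-type or replicate 1, 3 or 4 of the TTPΔARE group). The fit with Klf1 as a covariate did not keep it either, at log2 0.28 (limma adjusted p = 0.311). Klf1 was at 0.599, 0.509, 5.03 and 2.03 FPKM in wild-type replicates 1 to 4 and 4.50, 2.20, 6.98 and 5.93 FPKM in TTPΔARE replicates 1 to 4. The genotypes overlapped for Klf1, since wild-type replicate 3 lay above TTPΔARE replicates 1 and 2, and its log2 difference of 1.35 (SE 0.489) did not pass (limma adjusted p = 0.145). Car2 was at 10.6, 9.57, 55.6 and 23.1 FPKM in wild-type replicates 1 to 4 and 53.1, 34.97, 90.9 and 78.9 FPKM in TTPΔARE replicates 1 to 4. The order of spleens was the same for both genes within each genotype, lowest in wild-type replicate 2 and highest in replicate 3, and the Car2 difference of 1.63 (SE 0.481) did not pass either (limma adjusted p = 0.0848). Without wild-type replicate 3 both passed, Klf1 with log2 1.84 and Car2 with log2 2.14 (limma adjusted p = 0.0255 and 0.0138).

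**Figure D1:**
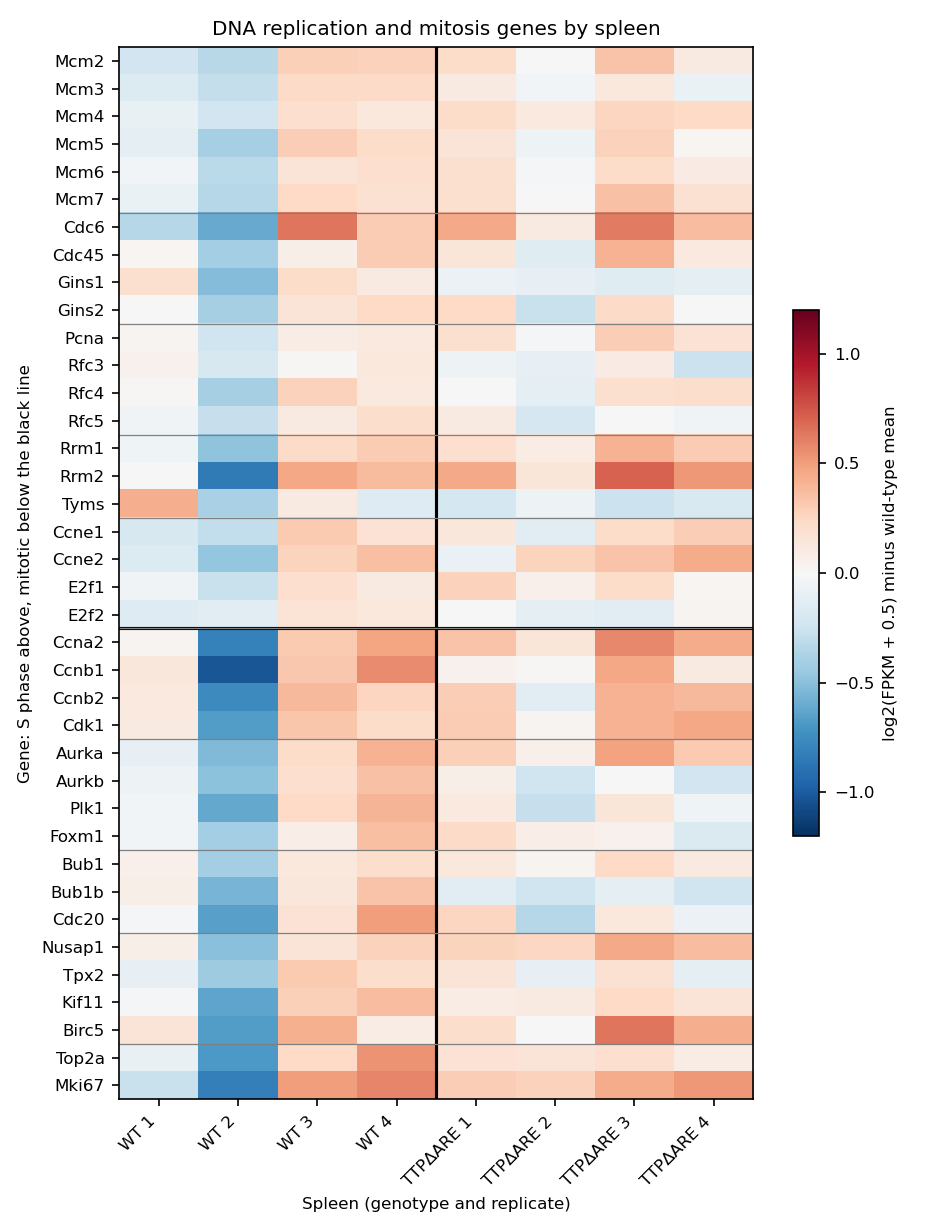
Each row is 1 gene and each column 1 spleen; colour gives log2(FPKM + 0.5) minus the wild-type mean of that gene, with S phase genes above the black line and mitotic genes below it. Wild-type replicate 2 is the lowest wild-type spleen for 37 of the 38 genes, and wild-type replicates 3 and 4 reach the levels of the TTPΔARE spleens.

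The 6 subunits of the MCM helicase were among the more abundant of the genes, at means of 14.2 to 22.5 FPKM over the 8 spleens. Mcm6 stood at 20.97, 17.02, 23.98 and 24.7 FPKM in wild-type replicates 1 to 4 and 24.5, 21.1, 25.1 and 22.95 FPKM in TTPΔARE replicates 1 to 4. Mcm2 stood at 12.9, 11.9, 18.5 and 18.4 FPKM in wild-type replicates 1 to 4 and 17.7, 15.2, 19.3 and 16.4 FPKM in TTPΔARE replicates 1 to 4. In both genes wild-type replicates 3 and 4 lay within the range of the TTPΔARE spleens and replicates 1 and 2 lay below it. All 6 subunits had positive differences, from log2 0.03 for Mcm3 (SE 0.114) to 0.21 for Mcm4 (SE 0.0889, limma adjusted p = 0.21), and their median was 0.14. Without wild-type replicate 2 the Mcm4 difference was 0.13, and Mcm3 and Mcm5 were at -0.07 and -0.04.

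Among the genes that load and complete the helicase, Cdc6, which recruits MCM rings to origins, had the largest ratio of highest to lowest wild-type spleen of all 38. It stood at 0.916, 0.675, 2.30 and 1.72 FPKM in wild-type replicates 1 to 4 and 1.96, 1.43, 2.25 and 1.82 FPKM in TTPΔARE replicates 1 to 4, so the highest wild-type value was 3.40 times the lowest. Its means were 1.40 ± 0.745 FPKM in wild-type and 1.87 ± 0.341 FPKM in TTPΔARE spleens (SD, n = 4 each), and the log2 difference of 0.39 (SE 0.234) did not pass (limma adjusted p = 0.379). Cdc45 had a log2 difference of 0.14. The GINS subunits Gins1 and Gins2 stood at -0.11 and 0.05. Gins1 was nearly constant in the TTPΔARE spleens, at 1.32 to 1.41 FPKM, against 0.899 to 1.83 FPKM in wild-type.

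Pcna, the sliding clamp that holds DNA polymerase on its template, was the most abundant of the 38. It stood at 51.8, 42.6, 53.7 and 54.95 FPKM in wild-type replicates 1 to 4 and 58.00, 49.6, 62.1 and 57.1 FPKM in TTPΔARE replicates 1 to 4, with a log2 difference of 0.16 (SE 0.0912, limma adjusted p = 0.353). Even here the lowest spleen was wild-type replicate 2, but the wild-type range was narrow at 1.29-fold. Of the clamp loader subunits, Rfc3, Rfc4 and Rfc5 had differences of -0.08, 0.07 and -0.03 with SEs of 0.088, 0.131 and 0.104. Rfc3 was the only one of the 38 genes with a smaller spread in wild-type than in TTPΔARE spleens (SD of 0.134 and 0.146 on the log2 scale).

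Enzymes that make deoxynucleotides differed in their order of spleens. Rrm2, the regulated subunit of ribonucleotide reductase, had the largest positive difference of the 38, log2 0.46 with an SE of 0.242 (limma adjusted p = 0.314). Its level was 12.5, 6.71, 17.4 and 16.48 FPKM in wild-type replicates 1 to 4 and 17.3, 13.9, 20.7 and 18.1 FPKM in TTPΔARE replicates 1 to 4. The difference was 0.17 without wild-type replicate 2. The large subunit Rrm1 stood at log2 0.25 (SE 0.148). Tyms, the thymidylate synthase, had a different order of spleens, with 3.36, 1.68, 2.57 and 2.07 FPKM in wild-type replicates 1 to 4 and 1.97, 2.24, 1.89 and 2.02 FPKM in TTPΔARE replicates 1 to 4. Wild-type replicate 1 was its highest spleen and all TTPΔARE values lay within the wild-type range (log2 -0.18, SE 0.146, limma adjusted p = 0.539). The mouse genome annotation holds pseudogene copies of Tyms, Pcna, Ccnb1 and Ccnb2, so reads of these 4 genes may have been divided with them.

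The regulators of S phase entry differed in level. E2f2, an E2F activator, stood at 10.96 FPKM on average and E2f1 at 3.17 FPKM, with log2 differences of -0.05 (SE 0.083) and 0.14 (SE 0.103). Ccne1, the cyclin E partner of Cdk2, was at 3.28, 3.01, 4.87 and 4.39 FPKM in wild-type replicates 1 to 4 and 4.25, 3.44, 4.53 and 4.80 FPKM in TTPΔARE replicates 1 to 4. Wild-type replicate 3 was the highest of all 8, replicate 4 lay within the TTPΔARE range, and replicates 1 and 2 lay below it. Its difference was 0.13 (SE 0.138), and that of Ccne2 was 0.24 (SE 0.177).

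The cyclins of mitotic entry and their kinase were all lowest in wild-type replicate 2. Ccnb1, the cyclin B that activates Cdk1, was at 6.85, 2.79, 7.88 and 9.40 FPKM in wild-type replicates 1 to 4 and 6.42, 6.27, 8.74 and 6.73 FPKM in TTPΔARE replicates 1 to 4. Its highest value of the 8 was in wild-type replicate 4 and its lowest in wild-type replicate 2, a 3.37-fold range, while the TTPΔARE spleens spanned 1.39-fold. Its log2 difference was 0.16 with an SE of 0.275 (limma adjusted p = 0.794), and -0.18 without wild-type replicate 2. Ccna2, Ccnb2 and Cdk1 had log2 differences of 0.38, 0.24 and 0.30, with SEs of 0.225, 0.22 and 0.191. Without wild-type replicate 2 these were 0.11, -0.011 and 0.08.

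Of the mitotic kinases, the spindle pole kinase Aurka stood at log2 0.28 (SE 0.172), the centromere kinase Aurkb at -0.10 (SE 0.155) and Plk1, which acts at centrosomes and kinetochores, at -0.02 (SE 0.187). The factor Foxm1, which drives G2 and M phase transcription, was at 0.05 (SE 0.143). Aurkb was at 5.63, 4.04, 6.82 and 7.64 FPKM in wild-type replicates 1 to 4 and 6.21, 4.91, 5.86 and 4.95 FPKM in TTPΔARE replicates 1 to 4, so that wild-type replicate 4 was the highest and wild-type replicate 2 the lowest of all 8.

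The spindle checkpoint genes held the most negative difference. Bub1b, the checkpoint protein BubR1, was at 7.67, 4.77, 8.05 and 9.35 FPKM in wild-type replicates 1 to 4 and 6.61, 6.06, 6.71 and 6.09 FPKM in TTPΔARE replicates 1 to 4. Every TTPΔARE spleen lay below wild-type replicates 1, 3 and 4 and above replicate 2, and the log2 difference was -0.18 (SE 0.154, limma adjusted p = 0.561). Without wild-type replicate 2 it was -0.36 and passed (limma adjusted p = 0.0406), the only call on any of the 38 in the 8 fits that each left out 1 spleen. Bub1, a checkpoint kinase, and Cdc20, the activator of the anaphase-promoting complex that the checkpoint restrains, stood at 0.13 (SE 0.127) and -0.0078 (SE 0.209).

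Spindle and chromosome genes were likewise lowest in wild-type replicate 2. Nusap1, a microtubule-bundling spindle protein, was at 2.77, 1.70, 2.96 and 3.26 FPKM in wild-type replicates 1 to 4 and 3.25, 3.19, 3.75 and 3.51 FPKM in TTPΔARE replicates 1 to 4. All 4 TTPΔARE values lay above wild-type replicates 1 to 3, and those of TTPΔARE replicates 1 and 2 lay below wild-type replicate 4; the difference of 0.33 (SE 0.142) did not pass (limma adjusted p = 0.209). Kif11, the kinesin that pushes spindle poles apart, Tpx2, which activates Aurka on the spindle, and Birc5, the survivin subunit of the Aurkb complex, stood at 0.15, 0.03 and 0.32. Mki67, the source of the Ki-67 proliferation antigen, was at 10.5, 6.98, 18.3 and 19.3 FPKM in wild-type replicates 1 to 4 and 15.8, 15.5, 17.5 and 18.5 FPKM in TTPΔARE replicates 1 to 4. Top2a, the topoisomerase that untangles replicated chromosomes, was at 13.2, 8.50, 16.7 and 20.5 FPKM in wild-type replicates 1 to 4 and 15.8, 15.7, 16.2 and 14.9 FPKM in TTPΔARE replicates 1 to 4. In both, wild-type replicate 4 was the highest of all 8 spleens and the 4 TTPΔARE spleens lay close together, while the wild-type SDs on the log2 scale were 0.668 and 0.525. The log2 differences were 0.38 and 0.15 (SE 0.254 and 0.199), and 0.11 and -0.08 without wild-type replicate 2.

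**Figure D2:**
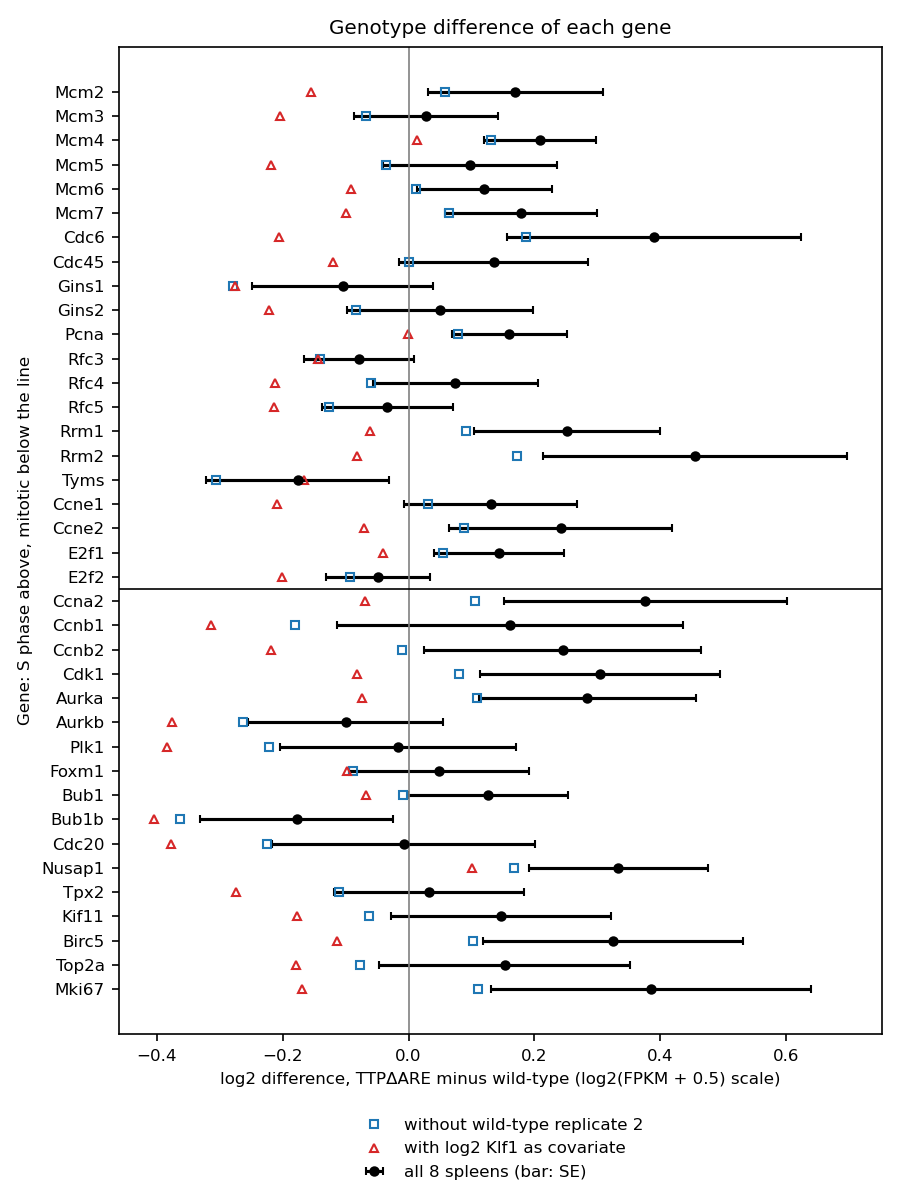
The horizontal axis is the log2 difference, TTPΔARE minus wild-type, for each gene; black points with SE bars use all 8 spleens, blue squares leave out wild-type replicate 2 and red triangles add log2 Klf1 as a covariate. With all spleens 29 of 38 are above 0, without wild-type replicate 2 17 are, and with Klf1 in the fit 2 are.

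Wild-type spleens varied more than TTPΔARE spleens in these genes. The median SD of log2(FPKM + 0.5) was 0.347 among the 4 wild-type and 0.147 among the 4 TTPΔARE spleens, against 0.113 and 0.0985 over all transcripts tested. The wild-type SD was the larger for 37 of 38 genes, against 59.7% of all transcripts tested. The highest wild-type value was 1.26 to 3.40 times the lowest, with a median of 1.62 for S phase and 2.24 for mitotic genes. In all 38 the wild-type range exceeded the genotype difference on the log2 scale, as it did in 86.3% of all transcripts tested. Wild-type replicate 2 was the lowest wild-type spleen for 37 genes, against 26.1% of all transcripts tested, and the lowest of all 8 spleens for 36. E2f2 was lowest in wild-type replicate 1, and Rfc3 had its lowest value of all 8 in TTPΔARE replicate 4. Without wild-type replicate 2 the median wild-type SD was 0.194. The fit's 38 differences then had a median of -0.0098, with 17 positive and 21 negative: 12 genes changed sign, and each of the 38 differences either changed sign or moved by over 1.5 times. The estimated fragments behind the lowest spleen's value ran from 31 for Gins1 to 2204 for Mki67, a relative counting error of 18.1% to 2.13%.

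**Figure D3:**
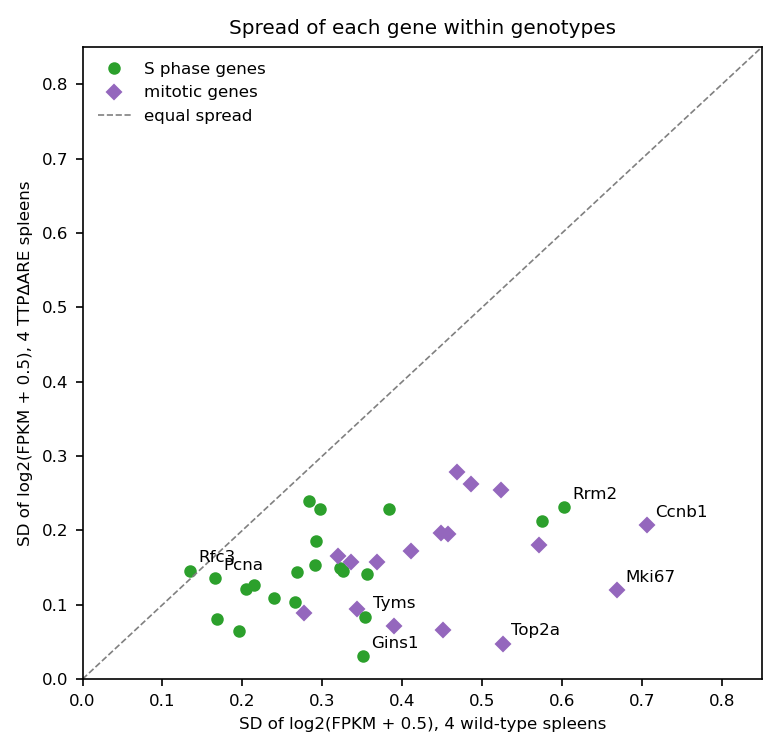
Each point is 1 gene, with the SD of log2(FPKM + 0.5) over the 4 wild-type spleens on the horizontal axis and over the 4 TTPΔARE spleens on the vertical axis; the dashed line marks equal spread. Only Rfc3 lies above the line, and mitotic genes such as Ccnb1 and Mki67 lie farthest to the right.

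S phase and mitotic genes moved together between spleens, with wider swings in the mitotic genes. Relative to the wild-type mean, the mean log2 level of the 21 S phase genes was -0.04, -0.37, 0.22 and 0.19 in wild-type replicates 1 to 4, and 0.14, -0.03, 0.23 and 0.12 in the TTPΔARE replicates. That of the 17 mitotic genes was 0.0022, -0.63, 0.26 and 0.36 in wild-type and 0.18, -0.0106, 0.29 and 0.15 in TTPΔARE spleens. Wild-type replicate 2 was therefore low in both groups of genes but lower in the mitotic one, and wild-type replicate 4 was higher in the mitotic than in the S phase genes. The mitotic minus S phase value ran from -0.25 in wild-type replicate 2 to 0.17 in replicate 4, while the 4 TTPΔARE spleens spanned 0.0176 to 0.0643. The genotype medians of the S phase and mitotic genes differed by -0.023 (S phase minus mitotic), and by -0.14 to 0.075 with 1 spleen left out, the ends being without wild-type replicates 4 and 2. The sign turned without wild-type replicate 2 or TTPΔARE replicate 2. With each genotype's mean subtracted, the median Pearson r over the 8 spleens was 0.82 for 210 pairs of S phase genes, 0.91 for 136 pairs of mitotic genes and 0.85 for 357 mixed pairs, a description in which all pairs share the same libraries. Wild-type replicate 2 lay farthest from its genotype mean in both groups of genes and so weighs most in these r values. They were not computed without it, nor for pairs of other transcripts. Tyms was the least like the rest (r = 0.31 with the mean of the other 37 genes) and Rrm2 the most (r = 0.99).

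The promoters of these genes are known for short motifs that go with the 2 waves of transcription, so the windows of the 2 most abundant S phase and the 2 most abundant mitotic genes with an entry are shown. RefSeq windows of 300 bases on GRCm38.p6, from 250 before to 50 after the annotated start, were found for 30 of the 38 genes. Capitals mark matches on either strand to the E2F letters TTTCCCGC, TTTGGCGC, TTTCGCGC or TTTGCCGC, to the cell cycle homology region (CHR) letters TTTGAA, and to the CCAAT box. Pcna lies at chr2:132253131-132253430, minus strand, Mcm6 at chr1:128359656-128359955, minus strand, Mki67 at chr7:135716330-135716629, minus strand and Top2a at chr11:99024140-99024439, minus strand, and each is printed 5′ to 3′ in the direction of the gene.
Pcna: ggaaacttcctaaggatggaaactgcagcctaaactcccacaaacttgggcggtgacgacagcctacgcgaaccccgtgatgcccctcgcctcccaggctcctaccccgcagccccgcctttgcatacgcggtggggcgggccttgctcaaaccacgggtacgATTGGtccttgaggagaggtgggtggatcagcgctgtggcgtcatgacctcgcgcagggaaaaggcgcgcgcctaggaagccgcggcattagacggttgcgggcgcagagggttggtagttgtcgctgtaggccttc
Mcm6: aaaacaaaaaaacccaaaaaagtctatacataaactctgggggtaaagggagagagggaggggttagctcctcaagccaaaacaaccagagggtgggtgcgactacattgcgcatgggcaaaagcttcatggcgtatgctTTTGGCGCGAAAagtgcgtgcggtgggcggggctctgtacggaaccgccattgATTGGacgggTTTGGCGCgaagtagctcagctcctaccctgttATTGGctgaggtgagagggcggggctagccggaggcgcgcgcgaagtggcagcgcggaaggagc
Mki67: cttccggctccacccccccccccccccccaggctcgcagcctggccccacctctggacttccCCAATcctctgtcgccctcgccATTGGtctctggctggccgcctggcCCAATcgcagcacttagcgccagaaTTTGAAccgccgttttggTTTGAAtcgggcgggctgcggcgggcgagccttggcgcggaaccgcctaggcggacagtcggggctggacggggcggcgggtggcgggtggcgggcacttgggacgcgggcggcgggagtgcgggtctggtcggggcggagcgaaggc
Top2a: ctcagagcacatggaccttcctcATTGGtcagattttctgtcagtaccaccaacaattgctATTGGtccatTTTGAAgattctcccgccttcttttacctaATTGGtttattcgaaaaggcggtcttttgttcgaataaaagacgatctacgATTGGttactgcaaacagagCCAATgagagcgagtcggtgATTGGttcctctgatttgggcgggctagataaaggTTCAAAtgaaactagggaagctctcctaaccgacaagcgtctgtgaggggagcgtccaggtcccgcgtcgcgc

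Mcm6 held 3 E2F matches, of which a pair overlaps on opposite strands, and 2 CCAAT boxes. Pcna held 1 CCAAT box and none of the E2F letters in this window. Mki67 held 2 CHR matches and 3 CCAAT boxes, and Top2a held 2 CHR matches and 6 CCAAT boxes. Of the S phase genes with a window, 7 of 17 held E2F letters (41.2%) and 1 of 13 mitotic genes did (7.69%), against 2.26% of 32817 promoter windows. CHR letters stood in 3 of 17 S phase genes (17.6%) and 9 of 13 mitotic genes (69.2%), against 17.9% of windows. CCAAT boxes stood in 11 of 17 and 11 of 13 (64.7% and 84.6%), against 37.4%, and the erythroid GATA letters AGATAA or TGATAA in 1 of each (5.88% and 7.69%), against 18.6%. Members are counted once per gene and E2f2 and Mcm7 have a second window; a letter match is a description and not a measured binding site.

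Within genotypes nearly all of the genes had positive slopes on Klf1. A limma fit with genotype and the spleen's log2 Klf1 level gave each gene a slope, in log2 units per log2 unit of Klf1, with the genotype difference removed. The slope was positive for 37 of 38 genes, Tyms being the exception at -0.00725, and the median was 0.19 for S phase and 0.27 for mitotic genes, against 0.0014 over all transcripts tested. By adjusted p 3 of 38 passed, all positive, against a background of 0.819%: Cdc6 with a slope of 0.44 (SE 0.0597, limma adjusted p = 0.00382), Ccne1 with 0.25 (SE 0.0412, limma adjusted p = 0.015) and Mcm2 with 0.24 (SE 0.0482, limma adjusted p = 0.0496). At an unadjusted p under 0.05 and positive stood 32 of 38, against 4.71% of all transcripts tested. Among mitotic genes 0 of 17 passed by limma, 14 had an unadjusted p under 0.05, and the steepest slope was that of Mki67 at 0.41 (SE 0.0978, limma adjusted p = 0.121). Whether S phase and mitotic slopes differ was not tested.

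The slope calls changed with single spleens and settings. Over 19 settings, the reported one included, Cdc6 passed in 18, Ccne1 in 16 and Mcm2 in 7 (limma adjusted p for Mcm2 = 0.0275 to 0.337). Without wild-type replicate 3, the wild-type spleen with the most Klf1, 0 of 38 passed by limma, with 34 called among all transcripts, and 29 had a positive slope at an unadjusted p under 0.05, against 2.80% of all transcripts. There the Cdc6 slope of 0.45 had an adjusted p of 0.195. Without wild-type replicate 2 Cdc6 and Rrm2 passed, 19 of 38 had a positive slope at an unadjusted p under 0.05, against 4.75% of all transcripts, and the median slope was 0.13 in place of 0.22. Without wild-type replicate 1 the number was 8, and without TTPΔARE replicate 2 it was 1, Cdc6. Car2 in place of Klf1 gave positive slopes for all 38 genes, and 2 of 38 passed, Cdc6 and Ccne1, against 0.849%. At an unadjusted p under 0.05 and positive stood 32 of 38, against 4.65%. The number passing on Car2 ranged from 0 without wild-type replicate 3 to 7 without wild-type replicate 1, and was 1 without wild-type replicate 2 or TTPΔARE replicate 2 or 3 and 4 without wild-type replicate 4. Klf1 and Car2 carry nearly the same information here, since the slope of Car2 on Klf1 was 0.98 (SE 0.0435).

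**Figure D4:**
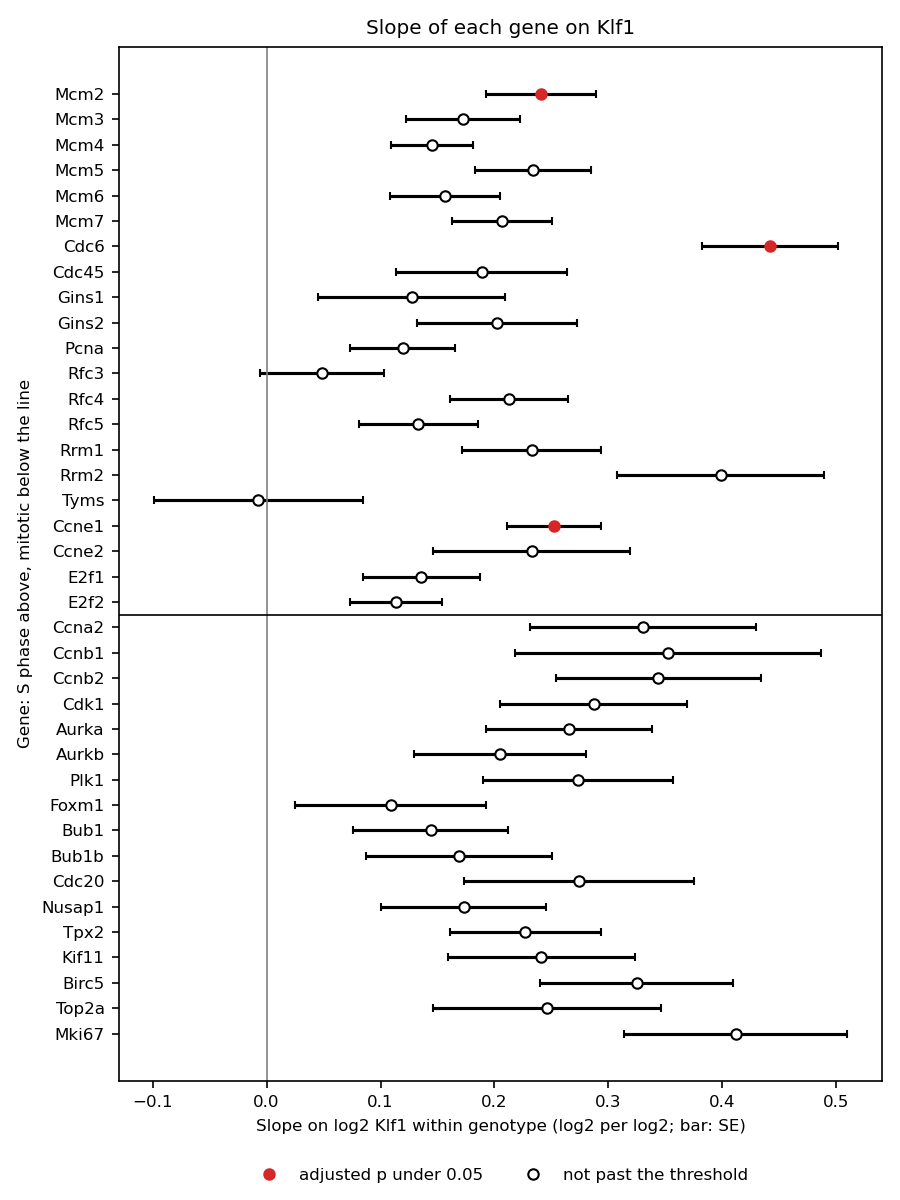
The horizontal axis is the slope of each gene on log2 Klf1 within genotype, with SE bars; filled red points have an adjusted p under 0.05 and open points do not. Cdc6, Ccne1 and Mcm2 are filled, and only Tyms has a slope below 0.

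Klf1 did not order all spleens as the cell cycle genes did. Wild-type replicate 4 had 2.03 FPKM of Klf1 and replicate 3 had 5.03 FPKM, yet replicate 4 was above replicate 3 for 13 of 17 mitotic genes and 8 of 21 S phase genes. Wild-type replicates 1 and 2 had similar Klf1, 0.599 and 0.509 FPKM, beside mitotic means of 0.0022 and -0.63. TTPΔARE replicate 2 had about as much Klf1 as wild-type replicate 4 and the lowest mean of its genotype in both groups of genes. With log2 Klf1 as a covariate the genotype differences of 36 of 38 genes were negative, against 50.8% of all transcripts tested, with medians of -0.15 for S phase and -0.18 for mitotic genes. This shift follows from the positive slopes and the higher Klf1 of the TTPΔARE spleens and is not a separate result. The 38 genes also move together, so they do not count as independent. In that fit 0 of 38 passed by limma and 4 had an unadjusted p under 0.05, against 11.5% of all transcripts tested.

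**Figure D5:**
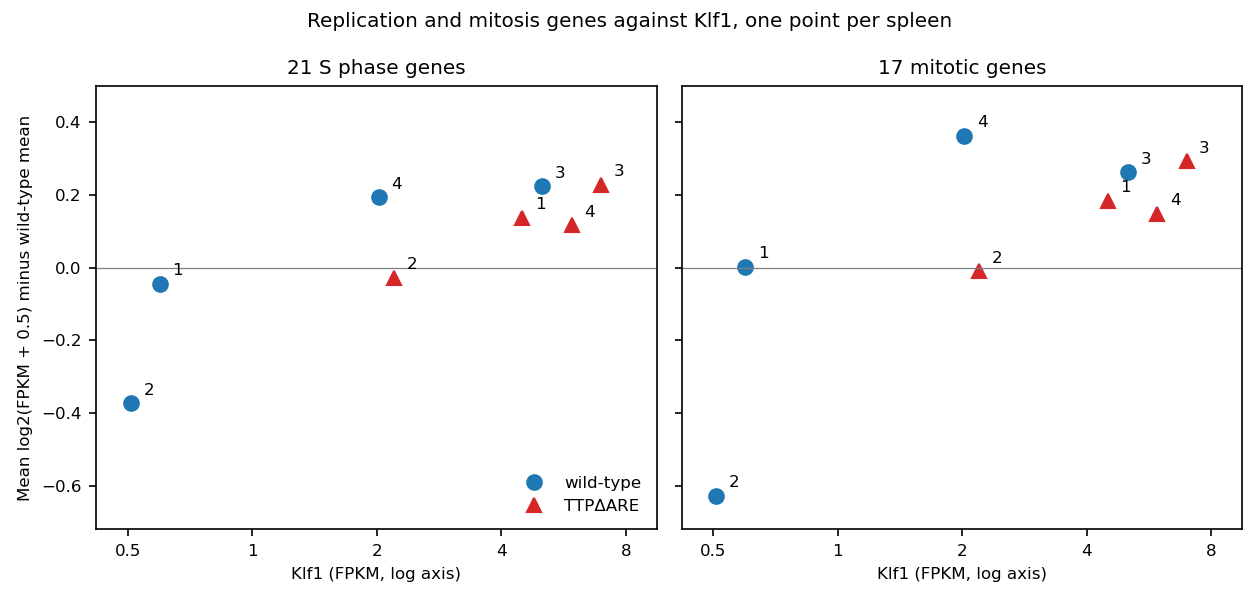
Each numbered point is 1 spleen, with Klf1 in FPKM on a logarithmic horizontal axis and the mean log2(FPKM + 0.5) of the S phase (left) or mitotic genes (right) relative to the wild-type mean on the vertical axis. Wild-type replicate 2 is lowest in both panels, and wild-type replicate 4 is the highest of 8 in the mitotic panel at a middling Klf1 level.

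Markers of other cells differed between some of the same spleens, and their part in the results was not tested. The summed level of 23 erythroid markers was 135 to 310 FPKM in wild-type, highest in replicate 3 and lowest in replicate 1, and 277 to 531 FPKM in TTPΔARE spleens. By limma 4 of the 23 rose between genotypes, a share to set beside the 2.01% of all transcripts called higher. The unadjusted p was below 0.05 for 22 of these markers and for 21.1% of all transcripts. The 4 that rose were Alas2 (log2 1.15, limma adjusted p = 0.0096), Fech (0.82, 0.0132), Bpgm (0.99, 0.0212) and Tspan33 (0.81, 0.0477). Alas2 and Fech passed in all 8 fits that left out 1 spleen, Bpgm in 5 and Tspan33 in 2. With Klf1 as a covariate none of the 4 passed, in a fit that called 18 transcripts higher and 15 lower. Alas2 and Bpgm stood at log2 1.28 and 1.23 there (limma adjusted p = 0.0639 and 0.0646). Fech and Tspan33 had limma adjusted p = 0.134 and 0.23. The median over the erythroid markers, Klf1 itself left out, was 0.13 in that fit, against 1.18 for all 23 without the covariate. Bpgm was lost when TTPΔARE replicate 3 or 4 or wild-type replicate 4 was left out, and Tspan33 passed only without TTPΔARE replicate 2 or wild-type replicate 3. Of the 22 erythroid markers other than Klf1, 19 had a called positive Klf1 slope, against 0.819% of all transcripts tested. Of 7 neutrophil precursor genes tested 1 did, and all 7 had a positive slope at an unadjusted p under 0.05, against 4.71%. The median slopes were 0.79 and 0.73. Positive at that unadjusted p were also 5 of 7 megakaryocyte and platelet genes and 1 of 4 mast cell and progenitor genes. In the germinal centre, plasma cell, B cell and T cell lists 0 were. Bpgm and Alas2, genes of later red cell maturation, were higher in wild-type replicates 1 and 2 than in replicates 3 and 4, unlike Klf1. Alas2 was at 26.5, 32.99, 20.2 and 19.2 FPKM in replicates 1 to 4, and Bpgm ranged from 25.9 to 48.4 FPKM, highest in replicate 2 and lowest in replicate 4. Precursor genes of neutrophils, 8 in all, summed to 51.7 FPKM in wild-type replicate 3 against 9.10 to 12.1 FPKM in the other wild-type spleens, and to 9.94 to 38.9 FPKM in TTPΔARE spleens. Germinal centre B cell markers, 8 found, summed to 34.9, 27.9, 28.8 and 39.5 FPKM in wild-type replicates 1 to 4. In TTPΔARE spleens they summed to 21.5 to 32.5 FPKM. Bcl6, the most abundant of them, was at 17.4, 18.4, 17.2 and 19.5 FPKM in wild-type replicates 1 to 4. General B cell markers, 6 in all, summed to 823 to 899.9 FPKM in wild-type and 706 to 760.2 FPKM in TTPΔARE spleens, without overlap. The 6 T cell markers summed to 115 to 132 and 104 to 122 FPKM. Plasma cell markers, 8 found, summed to 508 FPKM in wild-type replicate 1 and 222 FPKM in replicate 2, and to 220.4 to 269.7 FPKM in TTPΔARE spleens. Most of this sum was Igj, at 447 and 181 FPKM in wild-type replicates 1 and 2. Xbp1 was at 23.3 and 14.2 FPKM there, and Irf4 at 16.8 and 16.2 FPKM. Platelet and megakaryocyte markers, 8 in all, gave 44.3 to 85.3 FPKM in wild-type and 60.5 to 99.96 FPKM in TTPΔARE spleens, and 5 mast cell and progenitor markers 6.80 to 7.99 and 9.06 to 10.97 FPKM. Between genotypes 1 of 6 B cell markers fell, with all 6 differences negative, against 1.99% called lower over all transcripts. Itgb3, 1 of 7 megakaryocyte genes tested, and Kit, 1 of 4 mast cell and progenitor genes tested, rose, against 2.01% (log2 0.65 and 0.50, limma adjusted p = 0.0121 and 0.0274). In the germinal centre, plasma cell, neutrophil precursor and T cell lists 0 passed. No marker was at 0 in any spleen.

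Other genes of the same processes gave a similar picture. Of 42 further replication genes 0 passed by limma between genotypes, against 2.01% called higher and 1.99% called lower over all transcripts. At an unadjusted p under 0.05 were 4 (9.52%), against 21.1%, and the median was 0.052 (29 positive, 13 negative). The clamp loader subunits Rfc1 and Rfc2 stood at -0.17 and -0.15, the single-strand binding subunit Rpa3 at -0.34, and Slbp, the histone stem-loop binding protein with the highest mean, at 0.17. Of 61 further mitotic genes tested 0 passed and 3 had an unadjusted p under 0.05 (4.92%, against the same 21.1%), with a median of 0.089 (44 positive, 17 negative). Cks2, a small Cdk-binding protein, stood at 0.33, the kinetochore protein Spc25 at 0.34, Cep55 of the abscission bridge at -0.32 and the condensin subunit Smc4 at -0.02. Called slopes on Klf1 were held by Orc1 of the origin recognition complex (0.37) and by the mitotic genes Anln (0.35), Ube2c (0.37), Dlgap5 (0.32) and Kif22 (0.30). They made up 1 of 42 and 4 of 61, against 0.819% of all transcripts tested. None of these 5 slopes passed by limma without wild-type replicate 3, and of the 8 fits leaving out 1 spleen Anln passed in 6, Ube2c in 5, Orc1 in 4, and Dlgap5 and Kif22 in 2 each.

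Among 29 genes of G1 control Lin52, a subunit of the MuvB core that serves both repression in quiescent cells and the mitotic wave, fell, 1 of 29 against 1.99% of all transcripts. At an unadjusted p under 0.05 stood 6 of 29 (20.7%), against 21.1% of all. Levels of Lin52 were 4.51 ± 0.238 FPKM in wild-type and 3.65 ± 0.214 FPKM in TTPΔARE spleens (SD, n = 4 each), with a log2 difference of -0.27 (SE 0.0644, limma adjusted p = 0.0425). The call held in only 2 of the 8 fits that each left out 1 spleen, those without wild-type replicate 2 or TTPΔARE replicate 1, with log2 differences of -0.30 to -0.25 over the 8 (limma adjusted p = 0.0461 to 0.137). With Klf1 as a covariate the call did not hold, at a log2 difference of -0.28 (limma adjusted p = 0.241). The E2F partner Tfdp2 stood at 0.32 and the G1 cyclin Ccnd3 at 0.40 (limma adjusted p = 0.0939 and 0.0968), and E2f4, the most abundant of the list, at 0.09. E2f8, an E2F repressor of late S phase, had a called Klf1 slope of 0.45 (limma adjusted p = 0.00267), 1 of 29 against 0.819% of all transcripts. This slope did not pass without wild-type replicate 3 (limma adjusted p = 0.0993) and passed in the other 7 such fits.

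The genes whose pattern was most like that of the 38 were mostly mitotic. With each genotype's mean subtracted, the 10 symbols with the highest Pearson r to the mean of the 38 over 8 spleens, out of 11135 with a mean of at least 1 FPKM, had r of 0.97 to 0.99, and 7 of them were on the list of further mitotic genes. These were Ckap2l, Prc1, Hmmr, Nuf2, Ccnf, Kif22 and Cdca3. The other 3 were Ercc6l, a DNA translocase of mitotic chromosomes, the histone chaperone Asf1b and the amino acid transporter Slc7a5. Slc7a5 stood at 6.85, 5.48, 8.70 and 8.92 FPKM in wild-type and 8.25, 7.01, 9.15 and 7.71 FPKM in TTPΔARE replicates 1 to 4. By the same measure Klf1 ranked 334 with r = 0.79, Car2 388 with r = 0.77 and Zfp36 5333 with r = 0.049. This ranking too includes wild-type replicate 2, the spleen farthest from its genotype mean, and was not repeated without it.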

How the data were processed

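The authors deposited FPKM for each RefSeq transcript and spleen, 4 wild-type and 4 TTPΔARE. Genotype was taken from the labels; they name no batch, litter or pairs of animals. Alignment used BWA and the build is mm10, both per the submitters' processing notes. How reads were counted, with which annotation and strand setting, is not given in the sources used here. Depth was inferred from the spacing of low values (up to 0.5 FPKM): 38.1 to 41.9% were whole fragments within 0.05 at the best depth, against 8.7 to 8.9% at the median of depths tried. Since most were not whole, counts were not rebuilt. Lengths came from GENCODE M21 by accession.

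FPKM are not counts, so log2(FPKM + 0.5) was tested with limma 3.58.1 in R 4.3.3 (variance trend, two-sided) for 16608 transcripts averaging 0.5 FPKM or more, all 38 genes included. Fold changes on this scale understate those of low genes. Adjustment was by Benjamini-Hochberg over all tested transcripts at a threshold of 0.05. Slope fits added log2 Klf1 or Car2 to genotype, with 5 residual degrees of freedom. The fits were checked on simulated data in which genes varied independently. The simulated differences and slopes were larger than those of the 38 genes, so recovery at the sizes reported here was not checked. Further pathway genes are named if past the threshold, among the 3 smallest p or the highest mean of their list; Klf1 slope calls were named after their values were seen. The genes and lists were chosen with earlier results of these data known. Python 3.11.15, pandas 2.3.3 and matplotlib 3.10.9 were used. Alternatives were other pseudocounts, filters, scalings, variance settings, a threshold of 0.1, summed transcripts, covariates and leaving out each spleen.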

Additional observations from a re-analysis of the deposited data

How the results depend on the processing

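The S phase and mitotic medians, 0.13 and 0.15, kept their sign and stayed within the spread between spleens under other pseudocounts, filters, scalings and variance settings and with transcripts summed per symbol. With log2 Klf1 as a covariate they were -0.15 and -0.18, and with log2 Car2 -0.20 and -0.25. Leaving out 1 spleen gave 0.012 to 0.19 for S phase, -0.063 to 0.33 for mitotic genes and -0.14 to 0.075 for their difference, with the mitotic value below 0 only without wild-type replicate 2. The number of the 38 genes passing between genotypes was 0 to 1 with 1 spleen left out and 0 otherwise. Over all transcripts 333 were higher and 331 lower, 726 and 636 at a threshold of 0.1, and 18 and 15 with the Klf1 covariate. With the Car2 covariate limma called 0 higher and 2 lower, with 1609 at an unadjusted p under 0.05. With 1 spleen left out these counts were 93 to 437 and 104 to 332, the low ends without wild-type replicate 4 or TTPΔARE replicate 3 or 4. Called slopes numbered 3 for Klf1 and 2 for Car2, 10 and 6 with sample weights, 6 and 4 at a threshold of 0.1, and 0 to 8 and 0 to 7 with 1 spleen left out. Quantile normalization moved the median of all transcripts from 0.0031 to -0.0057. The cause of these shifts was not tested. No paired analysis was possible because the labels give no numbers or litters that link spleens of the 2 genotypes. FPKM of the least abundant genes rest on few fragments, which among the 38 limits Gins1, Ccne2 and Bub1 most. Klf1 had an estimated 24 fragments in its lowest spleen, a relative counting error of 20.2%, and Car2 had 537. The Klf1 values of 0.599 and 0.509 FPKM in wild-type replicates 1 and 2 were also close to the 0.5 FPKM added before taking logs.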

Other observations

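Of the 38 genes, 9 have 12 further transcripts in the deposited table, and 3 of these genes, Gins1, Cdc45 and Tpx2, gave transcripts of opposite sign. The second Gins1 transcript stood at 1.23, 0.471, 1.77 and 0.872 FPKM in wild-type replicates 1 to 4 and 1.17, 1.02, 1.66 and 1.28 FPKM in the TTPΔARE replicates, with a log2 difference of 0.23 (limma adjusted p = 0.607) against -0.11 for the first. For Cdc45 the second transcript stood at -0.11 (limma adjusted p = 0.594) against 0.14. The first Gins1 transcript spanned only 1.07-fold in TTPΔARE spleens, and the second followed the order of Klf1 there, with its highest value in TTPΔARE replicate 3. The split of reads between transcripts of 1 gene is uncertain. For Tpx2, 1 transcript stood at -0.00683 (limma adjusted p = 0.986) against 0.03 for the most abundant. All 5 Tpx2 transcripts were lowest in wild-type replicate 2.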
